A study of Homo sapiens with 6 samples.

Results

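The genes described here encode the mitotic kinases AURKA (Aurora A), AURKB (Aurora B), PLK1, TTK and NEK2, the Aurora A activators TPX2 and BORA, and INCENP, BIRC5 (survivin) and CDCA8 (borealin), the subunits that form the chromosomal passenger complex with Aurora B. They were chosen by symbol, with earlier results of these data known. All 10 were measured among the 23786 rows of the table, 1 row each. RNA of HSC3, an established cell line from a human tongue squamous carcinoma, was measured on microarrays. The 3 E7386 wells received 0.1 μM E7386 dissolved in DMSO, and the 3 DMSO wells received 0.1% of that solvent. The final share of DMSO in the E7386 wells is not given. In both cases treatment came 12 to 24 h after seeding, and RNA was taken 48 to 64 h later. The times of single wells within these ranges are not given. E7386 is a small molecule described as a modulator of the interaction between β-catenin and its coactivator CREB-binding protein, and the question here is how its addition bears on the transcripts of the mitotic kinases. Replicates are labelled biological and were separate wells, but the labels do not say whether they were set up on separate occasions. The p-values therefore measure only the spread among these wells, which may be technical.

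Entry into mitosis and the division that follows are driven by a small set of protein kinases. Aurora A acts at centrosomes and spindle poles, where TPX2 binds and activates it, and together with BORA it switches on PLK1, the polo-like kinase of mitotic entry, centrosome maturation and cytokinesis. TTK, also called MPS1, starts spindle checkpoint signalling at kinetochores, and NEK2 separates the centrosomes. In the chromosomal passenger complex INCENP is the scaffold, survivin and borealin bring the complex to centromeres, and Aurora B is the enzyme that corrects faulty microtubule attachments and later acts at the central spindle. In cycling cells the transcripts of such genes are low in G1 and peak in G2 and mitosis, through promoter elements known as CHR (cell cycle genes homology region) and CCAAT boxes, bound by MuvB complexes and by NF-Y.

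Because these genes moved together, their promoter windows were searched for those elements. The RefSeq windows of GRCh38.p14 run from 250 bases before to 50 bases after a gene's start, and 6 of the 10 genes had one: AURKB (with 2 start sites), BORA, CDCA8, INCENP, NEK2 and PLK1. Both strands were searched for the CHR letters TTTGAA, the variant TTCGAA, which is its own reverse complement, and the CCAAT box. Of the 6 genes 4 held TTTGAA, against 15.2% of all 35116 windows in the table, and 6 held CCAAT, against 34.6%. BORA alone among them also held TTCGAA, found in 1.45% of all windows. The described genes were counted as genes, AURKB with 2 windows, and the background was counted as windows. As the genes were chosen by symbol with earlier results known, these shares are no test. The matches are a description of the letters and not evidence of a bound factor. Counted by the first base of the match from the start of transcription, TTTGAA lay at -29 in PLK1, -23 in CDCA8, -10 in INCENP and -177 in BORA, always on the strand of the gene. In CDCA8 its last base is also part of a reverse-strand CCAAT box, at -18. The windows of PLK1 and CDCA8 are shown as examples with TTTGAA near the start, and those of NEK2 and AURKB as examples without it, each 5′ to 3′ along the gene. Capitals mark TTTGAA and CCAAT, and a CCAAT box on the reverse strand reads ATTGG.

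PLK1, chr16:23678639-23678938, plus strand: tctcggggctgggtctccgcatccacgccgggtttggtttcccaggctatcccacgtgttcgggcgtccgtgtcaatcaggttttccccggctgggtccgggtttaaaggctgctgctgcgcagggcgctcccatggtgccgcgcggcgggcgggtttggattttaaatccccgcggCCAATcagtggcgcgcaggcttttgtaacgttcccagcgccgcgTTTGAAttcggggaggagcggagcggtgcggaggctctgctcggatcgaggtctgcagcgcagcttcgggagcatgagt

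CDCA8, chr1:37692266-37692565, plus strand: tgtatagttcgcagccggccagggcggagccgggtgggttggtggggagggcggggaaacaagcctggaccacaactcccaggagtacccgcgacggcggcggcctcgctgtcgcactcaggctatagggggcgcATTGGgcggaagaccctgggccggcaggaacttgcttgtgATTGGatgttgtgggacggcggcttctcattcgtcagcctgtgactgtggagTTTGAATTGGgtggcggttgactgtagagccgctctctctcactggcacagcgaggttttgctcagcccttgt

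NEK2, chr1:211675572-211675871, minus strand: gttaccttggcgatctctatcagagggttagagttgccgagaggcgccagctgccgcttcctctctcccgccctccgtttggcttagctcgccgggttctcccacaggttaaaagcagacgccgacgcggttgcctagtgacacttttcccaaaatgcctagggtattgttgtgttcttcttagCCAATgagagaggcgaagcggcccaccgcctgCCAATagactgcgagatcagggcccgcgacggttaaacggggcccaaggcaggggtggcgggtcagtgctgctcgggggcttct

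AURKB, first start site in the table, chr17:8210176-8210475, minus strand: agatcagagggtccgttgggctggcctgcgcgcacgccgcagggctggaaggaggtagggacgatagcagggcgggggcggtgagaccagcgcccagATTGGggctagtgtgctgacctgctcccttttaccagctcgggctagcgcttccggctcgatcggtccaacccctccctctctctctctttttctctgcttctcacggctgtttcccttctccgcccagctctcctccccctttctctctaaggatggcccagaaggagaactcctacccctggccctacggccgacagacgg

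All 10 genes fell with E7386. Each passed an adjusted p under 0.05 in limma, a linear model fitted to all rows with Benjamini-Hochberg adjustment over all of them, against 8.69% of all rows called lower. The 3 E7386 values of each gene also lay below its 3 DMSO values, which held for 17.1% of all rows. Every one of the genes fell by at least 1 on the log2 scale, that is to at most 1 part in 2. Of all rows 1.29% were called with a fall of that size. The genes were chosen with earlier results of these data known, so these shares are a background and no test of the set. The median difference, E7386 minus DMSO, was -1.61 over the 10 genes and -0.016 over all rows. Folds ran from 2.04 for AURKB to 4.93 for PLK1, and limma adjusted p-values from 5.6e-05 to 4.4e-04. In bulk RNA, fewer cells in the phases that express these genes and less RNA per such cell cannot be told apart.

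**Figure D1:**
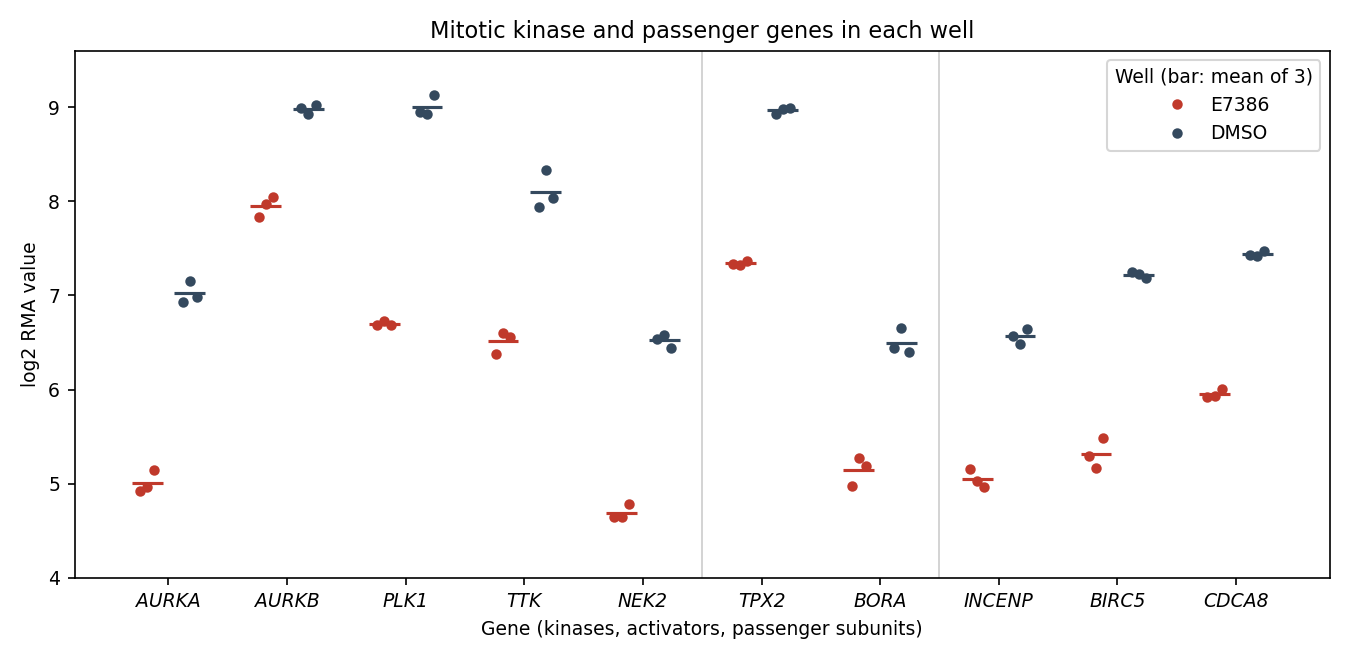
Log2 RMA values (vertical axis) of the 10 genes (horizontal axis, in the order kinases, activators, passenger subunits) in the 3 E7386 wells, left of each pair, and the 3 DMSO wells, right; points are single wells and bars are means of 3. No E7386 point reaches the DMSO points of the same gene, and AURKB has the smallest gap between its means, 1.03.

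PLK1 had the largest fall of the 10 genes. Its log2 values were 6.68, 6.73 and 6.69 in the E7386 wells, against 8.95, 8.93 and 9.13 in the DMSO wells. The E7386 wells spread over less than the DMSO wells, and the gap between the groups was many times either spread. The mean was 6.70 ± 0.025 with E7386 and 9.003 ± 0.11 with DMSO (SD, n = 3 each), a difference of -2.30 ± 0.091 (SE; limma adjusted p = 5.6e-05). By size of fall PLK1 stood at rank 13 of all 23786 rows.

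Of the 2 Aurora kinases, AURKA had the larger measured fall. AURKA values were 4.92, 4.96 and 5.15 in E7386 wells, against 6.93, 7.15 and 6.99 in DMSO wells, a difference of -2.01 ± 0.105 (SE; limma adjusted p = 6.4e-05) and a 4.04-fold fall. AURKB values were 7.83, 7.97 and 8.05 in E7386 wells, against 8.99, 8.93 and 9.02 in DMSO wells. Its difference was -1.03 ± 0.093 (SE; limma adjusted p = 4.4e-04), the smallest of the 10, with a 95% interval of -1.25 to -0.81 that does not reach the interval of AURKA, -2.26 to -1.77. Among all rows AURKA stood at rank 33 by size of fall and AURKB at rank 294.

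NEK2 and TTK lay between these. NEK2 had values of 4.65, 4.65 and 4.78 in E7386 wells, against 6.54, 6.58 and 6.45 in DMSO wells, a difference of -1.83 ± 0.089 (SE; limma adjusted p = 5.8e-05). It had the lowest mean of the 10 genes with E7386, 4.69, still above the array medians of 3.74 to 3.79. TTK had values of 6.38, 6.60 and 6.56 in E7386 wells, against 7.94, 8.33 and 8.03 in DMSO wells, a difference of -1.59 ± 0.13 (SE; limma adjusted p = 2.7e-04). The second DMSO well of TTK was higher than the other two, and the DMSO SD of 0.21 was the widest of any of the 10 genes in either group.

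Both Aurora A activators fell, and their 95% intervals, -1.81 to -1.44 for TPX2 and -1.62 to -1.08 for BORA, overlapped. TPX2, which also localises Aurora A to spindle microtubules, varied least within groups, with 7.34, 7.33 and 7.37 in E7386 wells, against 8.93, 8.99 and 8.99 in DMSO wells. Its difference was -1.62 ± 0.080 (SE; limma adjusted p = 5.8e-05), a 3.08-fold fall. BORA had 4.97, 5.28 and 5.19 in E7386 wells, against 6.44, 6.65 and 6.40 in DMSO wells. The difference of BORA was -1.35 ± 0.12 (SE; limma adjusted p = 3.9e-04), the smallest after that of AURKB.

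Of the 3 non-enzymatic passenger subunits, BIRC5 fell furthest. It had 5.29, 5.16 and 5.49 in E7386 wells, against 7.24, 7.23 and 7.18 in DMSO wells, and its difference was -1.90 ± 0.10 (SE; limma adjusted p = 7.7e-05), a 3.74-fold fall. The E7386 wells spread more widely than the DMSO wells, with SDs of 0.16 and 0.032. BIRC5 has also been described as a target of β-catenin with CREB-binding protein. Whether that bears on its fall, which lay between those of AURKA and NEK2, was not tested. The scaffold gene INCENP had 5.15, 5.03 and 4.96 in E7386 wells, against 6.57, 6.49 and 6.65 in DMSO wells, a difference of -1.52 ± 0.095 (SE; limma adjusted p = 1.1e-04). CDCA8 had 5.92, 5.93 and 6.00 in E7386 wells, against 7.43, 7.42 and 7.48 in DMSO wells, a difference of -1.49 ± 0.081 (SE; limma adjusted p = 7.4e-05). INCENP and CDCA8 had nearly coincident 95% intervals, -1.74 to -1.30 and -1.68 to -1.31.

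Within a group the 10 genes stayed close to their means. Their SDs ran from 0.020 to 0.21, and the median SD within groups over all rows was 0.15. The third E7386 well held 8 of the 10 genes above their group mean, with a mean deviation of 0.056, and the first held 1 of them above it, at -0.053. In DMSO the mean deviations were -0.036, 0.038 and -0.0019 for the first, the second and the third well. The mean level over the 10 genes was 5.91, 5.96 and 6.02 in the E7386 wells, against 7.60, 7.67 and 7.63 in the DMSO wells, so the shifts between wells of a group were small beside the difference between groups.

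The measured falls of kinases and partners were unequal. For 6 pairs of proteins known to act together, the log2 value of the partner was subtracted from that of the kinase in each well. This balance was compared between groups. The level of one gene against another carries no meaning here. A shift of the balance shows that the measured values changed unequally, and whether the RNA did so was not tested. AURKB minus BIRC5 was 2.54, 2.81 and 2.56 in E7386 wells, against 1.75, 1.70 and 1.84 in DMSO wells, a shift of 0.87 ± 0.094 (SE). The shift of AURKB minus INCENP was 0.49 ± 0.12, and that of AURKB minus CDCA8 was 0.46 ± 0.046. The measured fall was thus larger for all 3 passenger subunits than for the enzyme they hold, and in each pair the 3 E7386 wells lay above the 3 DMSO wells.

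On the Aurora A side the direction was the opposite. AURKA minus TPX2 was -2.42, -2.37 and -2.22 in E7386 wells, against -2.00, -1.83 and -2.00 in DMSO wells, a shift of -0.39 ± 0.082 (SE). The shift was -0.66 ± 0.096 for AURKA minus BORA and -0.95 ± 0.15 for PLK1 minus BORA, so the measured fall was larger for both kinases than for their activators. In these pairs the E7386 wells lay below the DMSO wells. Each of the 6 shifts had an exact two-sided permutation p of 0.10, unadjusted and Benjamini-Hochberg adjusted over the 6 pairs, which is the smallest that 3 wells against 3 allow, so none could pass 0.05. The pairs share genes and are not independent.

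**Figure D2:**
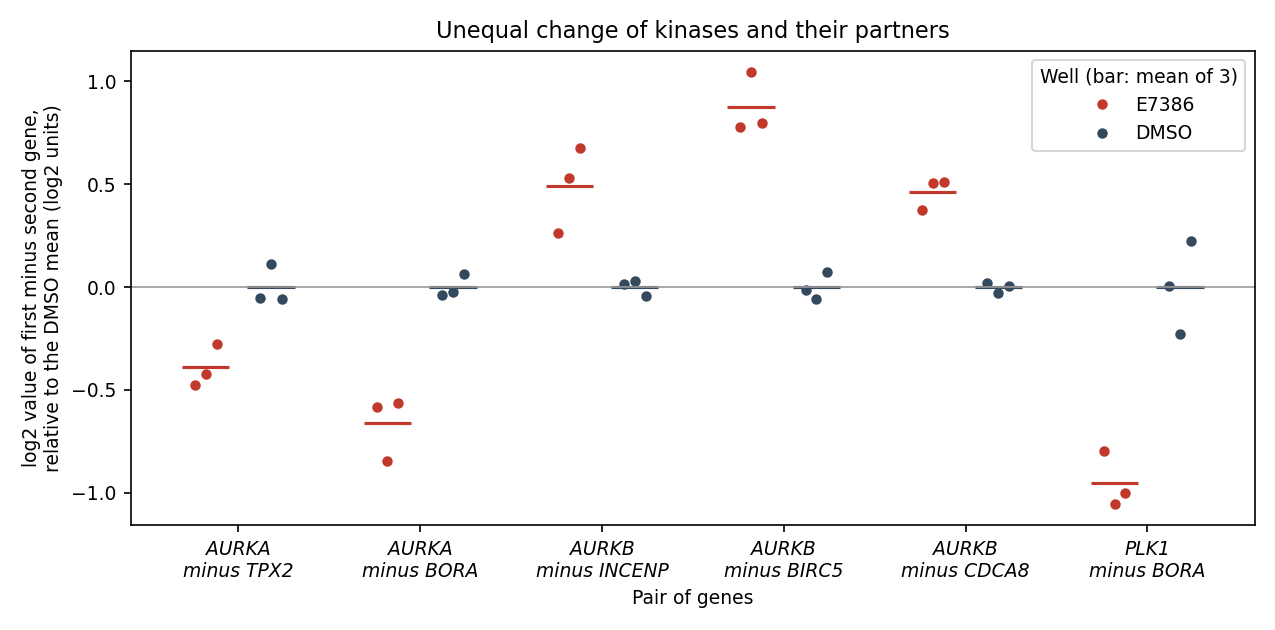
Log2 value of the first gene minus that of the second in each well (vertical axis, log2 units, relative to the DMSO mean) for 6 pairs (horizontal axis), with the E7386 wells left of the DMSO wells of each pair; bars are means of 3. E7386 wells lie above DMSO wells for the 3 AURKB pairs and below them for the 2 AURKA pairs and for PLK1 minus BORA, by 0.95 in the last.

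Close relatives of these genes were called about as often as rows of the whole table. Of 19 other genes of the Aurora, polo-like, NIMA-related and BIR domain families, 3 fell, 1 rose and 15 were not called, with a median difference of -0.070. Over all rows 18.6% were called, 8.69% lower and 9.93% higher, so the number not called says little about the relatives. Above the array medians in every well lay 3 of the 4 polo-like, 5 of the 9 NIMA-related and 4 of the 5 BIR domain genes. Signals below those medians may be background alone. The remaining Aurora kinase gene, AURKC, known mainly from germ cells, lay below the array medians in all wells, with 3.48, 3.14 and 3.43 in E7386 wells, against 3.20, 3.42 and 3.64 in DMSO wells. Its 95% interval was -0.40 to 0.26, at a level where a signal may be background alone.

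Among the polo-like kinases PLK4, which controls centriole duplication, also fell. It had 5.61, 5.82 and 5.95 in E7386 wells, against 6.95, 6.91 and 6.93 in DMSO wells, a difference of -1.14 ± 0.11 (SE; limma adjusted p = 5.2e-04). PLK2 had a difference of -0.14, with a 95% interval of -0.36 to 0.086, at values of 9.43 to 9.54 with E7386 and 9.52 to 9.74 with DMSO. PLK3 differed by -0.045 and PLK5 by -0.055, and neither was called, PLK5 at levels below the array medians in all wells. PLK4 had the largest fall of the 19 relatives and was the 1 among them that fell at least as far as AURKB.

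Of 9 NIMA-related kinase genes analysed beside NEK2, 2 fell, 7 were not called and none rose. NEK6, which acts downstream of NEK9 in spindle formation, fell by 0.76 ± 0.11 (SE; limma adjusted p = 0.0035), and NEK4 fell by 0.48 ± 0.091 (limma adjusted p = 0.0095). NEK7, the close homologue of NEK6, had 7.66, 7.84 and 7.61 in E7386 wells, against 7.57, 7.82 and 7.53 in DMSO wells, and overlapped between groups. NEK9 was not called, at a difference of 0.24 ± 0.10 (limma adjusted p = 0.15). NEK11 differed by 0.52 ± 0.18 (limma adjusted p = 0.090), and was called without the first E7386 well (0.042).

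BIRC5 shares the BIR domain with the inhibitor of apoptosis family, and of 5 other genes of that family none passed the test as lower and 1 rose. BIRC2, which encodes the ubiquitin ligase cIAP1, had 7.72, 7.78 and 7.62 in E7386 wells, against 7.20, 7.15 and 6.97 in DMSO wells, a rise of 0.60 ± 0.098 (SE; limma adjusted p = 0.0055). XIAP, a direct caspase inhibitor, missed the threshold at a difference of 0.47 ± 0.15 (limma adjusted p = 0.068), and passed it without the third E7386 well (0.022). BIRC6 differed by -0.26 ± 0.090 (limma adjusted p = 0.090), BIRC7 by 0.19 and BIRC8 by -0.23, the last 2 at levels of 3.67 to 4.59.

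**Figure D3:**
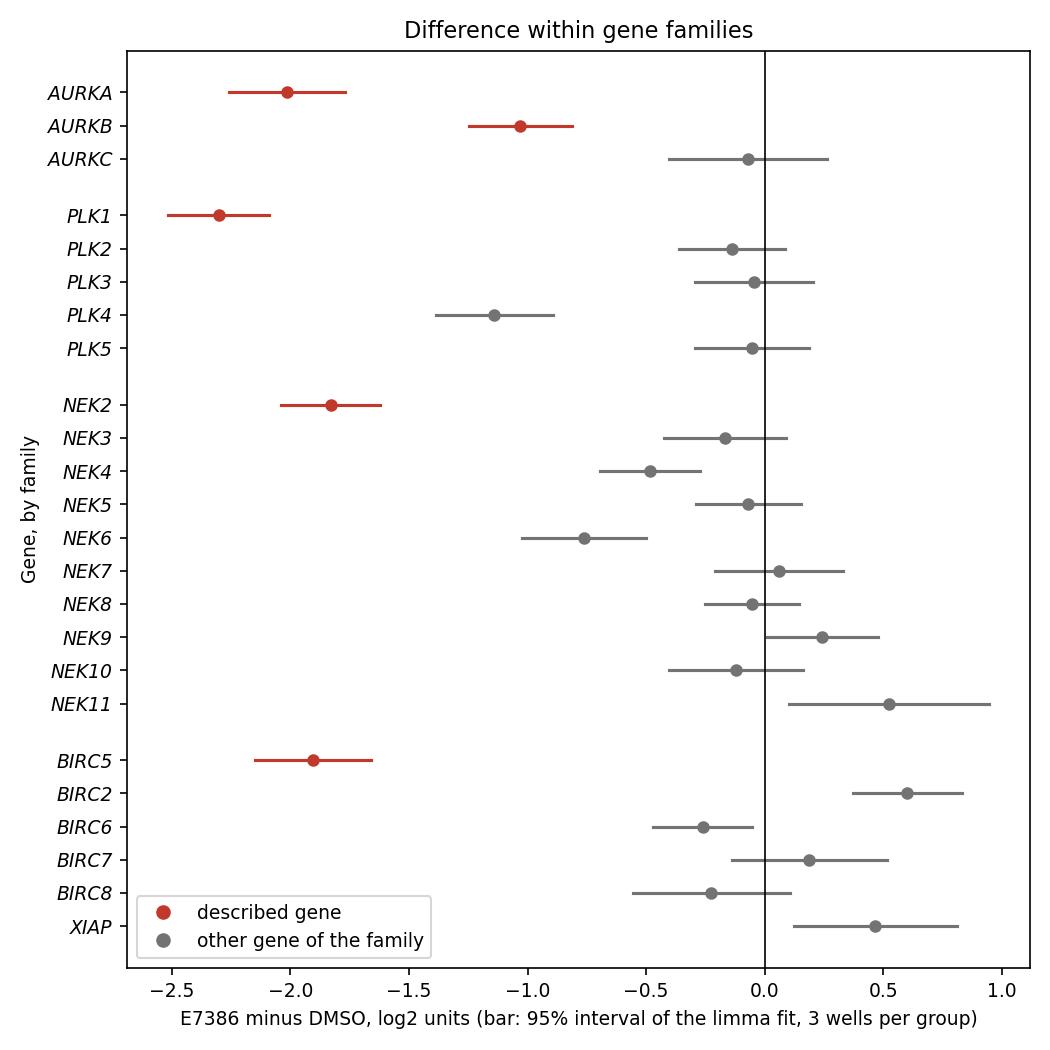
Difference between E7386 and DMSO in log2 units (horizontal axis) for genes of 4 families (vertical axis), with 95% intervals of the limma fit on 3 wells per group; red marks the described genes and grey the other genes of each family. The red points lie at -1.03 or below, and among the grey ones PLK4 is at -1.14 and BIRC2, at 0.60, is the only one called higher.

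Genes that work beside these kinases mostly fell too. In 4 lists of partners, 39 of 48 genes fell, 1 rose and 8 were not called, with a median of -1.23. The shares of all rows, which also stand beside the lists that follow, were 8.69% called lower and 9.93% higher. All lists were written with earlier results of these data known, so their counts are no test. All 13 genes of passenger complex recruitment and the central spindle fell, with a median of -1.34, or 12 without any one of the 6 wells, since RCC2 then missed the threshold (limma adjusted p = 0.052 to 0.11). KIF20A, the kinesin that carries the passenger complex to the central spindle, fell by 3.48 ± 0.10 (SE), CDCA2, a PP1 targeting subunit that opposes Aurora B on chromatin, fell by 1.79 ± 0.11, and the chromokinesin KIF4A fell by 1.69 ± 0.11.

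Aurora A partners were in part called lower and in part not called. Of 9 genes 6 fell, with a median of -0.53 for the list. FAM83D, which recruits casein kinase 1 to the spindle, fell by 2.51 ± 0.094 (SE), HMMR, a spindle pole protein that binds TPX2, fell by 2.03 ± 0.095. The kinesin KIF11 fell by 1.63 ± 0.097, and TACC3, a substrate of Aurora A, fell by 1.11 ± 0.085. CKAP5, the partner of TACC3 on microtubules, fell by 0.53 ± 0.083. CEP192, the centrosomal scaffold that recruits Aurora A and PLK1, fell by 0.42 ± 0.086, a call lost without the second E7386 well (limma adjusted p = 0.055). NEDD1, AJUBA and HAUS6, with roles at centrosomes and in spindle assembly, differed by -0.017, -0.0037 and 0.084 and were not called, although all 3 lay above the array medians in every well.

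Among genes of mitotic entry and PLK1 substrates 11 of 14 fell and none rose, with a median of -1.33. The falls numbered 10 without any one well other than the first E7386 well. The mitotic cyclin gene CCNB1 fell by 2.18 ± 0.15 (SE) and its relative CCNB2 fell by 1.96 ± 0.14. GTSE1, which encodes a microtubule-associated protein, fell by 2.07 ± 0.093. Where TTK acts, at the checkpoint and the outer kinetochore, 9 of 12 genes fell and 1 rose, with a median of -1.33. Of the NDC80 complex, which binds microtubules, SPC25 fell by 2.20 ± 0.15 (SE), NDC80 fell by 2.13 ± 0.16 and NUF2 fell by 2.06 ± 0.11. MIS12, which encodes a kinetochore scaffold subunit, rose by 0.44 ± 0.11, a call lost without the second or the third well of either group (highest limma adjusted p = 0.11).

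The lists of mitotic phosphatases with their inhibitors and of mitotic ubiquitin enzymes had medians nearer to 0. Of all rows, 8.69% were called lower and 9.93% higher. Of 21 genes of phosphatases and of the pathway that inhibits PP2A, 6 fell and 1 rose, with a median of 0.032. Only 3 of the 6 falls were of phosphatase genes, PPP2R5D, PPP1CC and PPP2R5C. The other 3, named after their values were seen, were MASTL, the kinase that restrains PP2A in mitosis, and ENSA and ARPP19, the PP2A inhibitors it activates. ENSA fell by 0.72 ± 0.092 (SE), ARPP19 fell by 0.70 ± 0.098 and MASTL fell by 0.61 ± 0.11. PPP2R5D, a PP2A regulatory subunit, fell by 0.82 ± 0.15 (SE) and PPP1CC, a PP1 catalytic subunit, by 0.81 ± 0.085, while the PP2A subunit gene PPP2R5B rose by 0.83 ± 0.12. Of 16 genes of the anaphase-promoting complex and related ubiquitin enzymes 7 fell and none rose, with a median of -0.19, and 4 fell without the third DMSO well or without the first or second E7386 well. UBE2C fell by 1.10 ± 0.11, CDC20 by 0.89 ± 0.11 and CDC27 by 0.58 ± 0.096, the first 2 being the ubiquitin-conjugating enzyme and the mitotic activator of the complex.

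Calls among regulators of G2/M transcription went in both directions. Of 16 genes 4 fell and 2 rose, with a median of -0.12. Over all rows 8.69% were called lower and 9.93% higher, so the rises were about as frequent here as in the whole table. The transcription factor genes FOXM1 and MYBL2, whose products act with the MuvB core at CHR elements, fell by 0.96 ± 0.086 and 1.09 ± 0.092 (SE). LIN37, a MuvB core subunit needed for repression by the DREAM complex, rose to 7.21, 7.21 and 7.46 in E7386 wells, against 6.10, 6.08 and 6.27 in DMSO wells, a difference of 1.14 ± 0.11 (limma adjusted p = 5.3e-04). E2F4, an E2F of that complex, rose by 0.30 ± 0.084, a call lost without any one of the 6 wells (limma adjusted p = 0.071 to 0.14). The pocket protein genes RBL2 and RBL1, which made up the rest of the falls, are named after their values were seen. RBL2 fell by 0.55 ± 0.12, a call lost without the first or second DMSO well or the second or the third E7386 well, and RBL1 fell by 0.35 ± 0.094, a call kept only without the third DMSO well. Without the wells at which both calls were lost, 2 genes fell.

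Lists for other parts of the cell cycle also had smaller medians. Calls over all rows were 8.69% lower and 9.93% higher. Of 25 DNA replication genes 17 fell and 2 rose, with a median of -0.47, and fewer fell in each fit without 1 well. CDC45 and TYMS fell by 1.22 ± 0.084 and 1.09 ± 0.085 (SE), and GINS2 fell by 1.00 ± 0.12. RFC4 rose by 0.46 ± 0.091, as did MCM7, by 0.31 ± 0.087, a call lost without any one well (limma adjusted p = 0.060 to 0.15). Of 16 G1 cyclins, cyclin-dependent kinase inhibitors and related genes none fell and 4 rose, with a median of 0.069, and 2 rose without the first or the third DMSO well or without any one E7386 well. Without the second E7386 well 1 gene was called lower, CCNE1, the gene of cyclin E1 (limma adjusted p = 0.049), named after its values were seen. GADD45A rose by 0.67 ± 0.10 and CCND1, the gene of cyclin D1, by 0.61 ± 0.092. CDKN1A, the gene of the inhibitor p21, rose by 0.40 ± 0.11 (limma adjusted p = 0.042). That call was lost in the fits without 1 well, except without the second DMSO well. CDKN1B, the gene of p27, overlapped between groups and was not called.

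**Figure D4:**
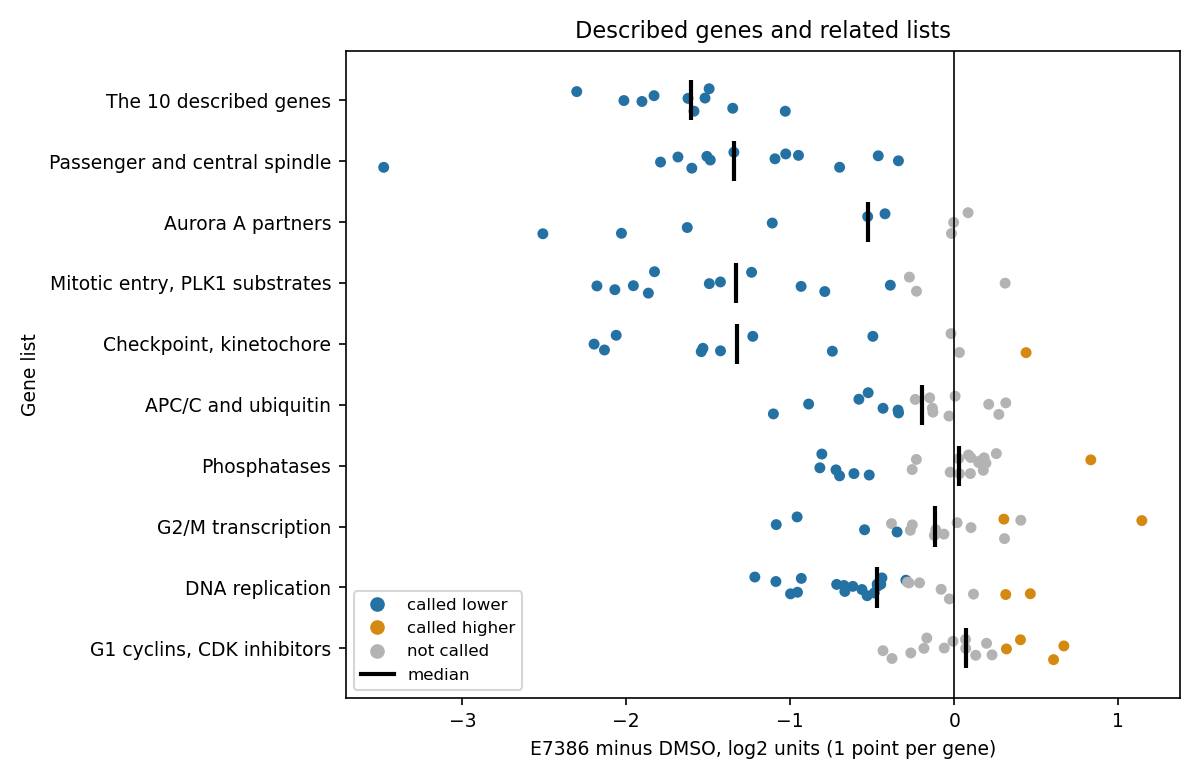
Difference between E7386 and DMSO in log2 units (horizontal axis) for each gene of the described set and of 9 related lists (vertical axis), with 1 point per gene, blue for called lower, orange for called higher and grey for not called; black bars are medians. The 10 described genes have a median of -1.61, the partner lists -0.53 to -1.34, DNA replication -0.47 and the G1 list 0.069.

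The genes whose course over the 6 wells was most like that of the mean of the 10 were KIF11, PRR11, CENPF, MKI67 and TOP2A. Likeness was the root-mean-square distance, in log2 units over the wells, between a gene's values and the mean of the 10 genes, each first centred on its own mean. That centred mean was 0.80 to 0.87 in DMSO wells and -0.89 to -0.78 in E7386 wells. A small distance thus reflects mainly a fall of similar size, here with differences of -1.79 to -1.58, and little of the spread within groups. The distances of these 5 were 0.055 for KIF11, 0.061 for PRR11, 0.063 for CENPF, 0.064 for MKI67 and 0.069 for TOP2A. Among the 10 genes themselves TPX2 was nearest to their mean, at 0.034, and PLK1 and AURKB were farthest, at 0.33 and 0.32. MKI67, the gene of the proliferation marker Ki-67, had 7.95, 7.98 and 7.94 in E7386 wells, against 9.63, 9.72 and 9.77 in DMSO wells.

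Markers of epithelium were high in all wells, and those of other cell types were mostly low, with exceptions. Pearson correlations across genes, which are not independent replicates, were 0.982 to 0.985 across treatments and 0.992 to 0.995 within one treatment. All 7 analysed epithelial markers lay above the array medians in every well. The list held 10 genes, of which TP63, KRT6A and KRT17 had no value here. KRT14 and KRT5, the basal keratin genes, fell by 1.64 ± 0.11 and 0.79 ± 0.081 (SE), and the cadherin gene DSG3 rose by 0.59 ± 0.094. The mean over 8 fibroblast markers was 2.69 to 2.76 in E7386 wells and 2.67 to 2.87 in DMSO wells, and none was called. DCN and LUM lay below 2 throughout, while COL1A1 lay above the array medians in every well, at 5.25 to 5.37 with E7386 and 4.97 to 5.53 with DMSO, and THY1 reached 4.33 with E7386 and 4.38 with DMSO. Over 6 endothelial markers it was 1.71 to 1.84 in E7386 wells and 1.90 to 1.94 in DMSO wells, none of them above the array medians. Over 7 leukocyte markers it was 3.33 to 3.55 in E7386 wells and 3.38 to 3.48 in DMSO wells, with PTPRC and CD3E at 1.51 or below in every well. CD68, a lysosomal protein gene, was high in all wells, at 8.96 to 9.10 with E7386 and 9.04 to 9.08 with DMSO. LCP1, which carcinoma cells can also express, rose by 0.95 ± 0.081 (SE). CD14 differed by -0.62 (limma adjusted p = 0.081) and was called lower without the first E7386 well (0.0037). Whether these marker levels bear on the falls described here was not tested.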

How the data were processed

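Log2 expression values of 6 arrays, 3 E7386 and 3 DMSO wells, were analysed. Per the submitters' processing notes the authors used affy 1.36.1 and RMA for the deposited log2 values. This method corrects background, equalises the arrays' distributions and summarises probes, so a change in total RNA per cell leaves no trace. No source used here gives the probe set definition or the build. Each of the 23786 rows carries 1 gene identifier, and the platform annotation names 22458 of them.

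The values were used as deposited. limma 3.58.1 in R 4.3.3 fitted treatment as the only term to all rows (lmFit, eBayes), with two-sided p-values, Benjamini-Hochberg adjustment over all rows and calls at an adjusted p under 0.05. The fit was tested on simulated data. Differences are E7386 minus DMSO. The number of arrays limits the precision.

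The members and lists were chosen with earlier results of these data known. By rule, names could be given to all 10 members, any gene of a list with at most 10 genes, the 3 largest called differences of longer lists with up to 2 in the opposite direction, CCND1, CDKN1A, CDKN1B, FOXM1, MYBL2 and MKI67, and the 5 genes most like the members. RCC2, RBL1, RBL2, PPP2R5C, MASTL, ENSA, ARPP19 and CCNE1 fall outside it and were chosen after their values were seen. Listed genes with no value here were not analysed. The alternatives tried were array weights, a replicate block, a minimum difference of 1, each well left out, dim genes left out, a prior variance that follows intensity (plain or robust), the ordinary two-sample test, median centring and a second quantile normalization. Promoters came from RefSeq.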

Additional observations from a re-analysis of the deposited data

How the results depend on the processing

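All 10 genes kept their direction and their call in each of 14 alternative fits, 8 of the whole data and 6 without 1 well, with adjusted p-values of at most 0.0093. PLK1 ranged from -2.34 to -2.24, AURKA from -2.08 to -1.95 and AURKB from -1.08 to -0.97. The 6 balances kept their sign in 7 alternatives, a second quantile normalization and the fits without each well.

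The calls over all rows moved more. Of 2067 lower and 2363 higher, a minimum difference of 1 left 308 and 308. Without 1 well, 1373 to 1657 were lower and 1534 to 1978 higher, the lowest without the third E7386 well. The labels do not say whether replicate numbers shared by the groups pair the wells. Deviations of same-numbered wells correlated at 0.051, 0.12 and -0.0077, and these values cannot settle it. With the replicate block, 1701 were lower and 2000 higher, and 10 of the 10 genes stayed called.

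Counts in short lists moved by over 1.5 times with the fit. With dim genes left out, which means fewer genes tested, 2 BIR domain genes rose and 1 fell, 1 NIMA-related gene and 1 mitotic entry gene rose, 2 genes each of the phosphatase and ubiquitin lists rose, and 2 G1 genes fell. The intensity trend, also with a robust prior, gave 2 BIR domain rises and 1 fall, 1 mitotic entry rise, 2 ubiquitin rises and 1 G1 fall. MIS12 was not called with the ordinary test or the replicate block. Epithelial rises numbered 2 with dim genes left out or the ordinary test and 3 with either trend. The block also left 1 replication and 2 G1 genes rising, median centring left 1 replication and 1 transcription gene rising, and the ordinary test added 1 ubiquitin rise. The cause of these moves was not tested.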
